A study of Mus musculus with 6 samples.

Results

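The genes described here encode the subunits of the transcription factor nuclear factor κB (NF-κB), *Rela*, *Relb*, *Rel*, *Nfkb1* and *Nfkb2*, their classical inhibitors *Nfkbia*, *Nfkbib* and *Nfkbie*, and the nuclear IκB proteins *Bcl3* and *Nfkbiz*. They were chosen by gene symbol and make up 10 of the 24062 genes in the count tables. All 10 passed the filter on low counts, which left 15652 genes to test. RNA sequencing (RNA-seq) was carried out on bulk dorsal root ganglion (DRG) and tumor tissue of 6 mice of C57BL/6-I129 background. In 3 of them, Nf1fl/fl;DhhCre, Cre recombinase under the *Dhh* promoter deleted the floxed *Nf1* gene in Schwann cells (SCs) and their precursors. In the other 3, *Runx1* and *Runx3* were floxed as well. The labels give these as Rx1flfl;Rx3fl/fl;DhhCre and leave out *Nf1*. The methods of the paper give Runx1fl/fl;Runx3fl/fl;Nf1fl/fl;DhhCre, so that loss of *Nf1* in SCs is common to both groups. The labels name the tissue DRG for the first group and neurofibroma tumor for the second, so that genotype and tissue as labelled cannot be told apart. The results of the paper instead write of tumors for the first group and of DRG/tumors for the second. Its methods name DRG/tumors for both groups, and its supplementary table names tumors for both. All 14 sensory neuron markers tested were higher in the second group, the one labelled tumor. The genes stay intact outside the SC lineage, and the age of these mice was not given in the sources used here.

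NF-κB acts as a dimer of subunits that share the Rel homology domain. *Rela*, *Relb* and *Rel* encode subunits with an activation domain, and *Nfkb1* and *Nfkb2* encode the precursors of p50 and p52, which bind DNA but lack one. The classical inhibitors hold dimers in the cytoplasm until the IκB kinase marks them for destruction. *Bcl3* and *Nfkbiz* encode ankyrin repeat proteins that act in the nucleus with p50 or p52. Several of these genes are themselves induced by NF-κB, and the pathway is best known from macrophages and other immune cells, although SCs, fibroblasts and neurons express it too.

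Because several of these genes answer to NF-κB itself, the stretches of their promoters that match the κB consensus are shown first. This consensus is 3 G, a purine, 2 free bases, 2 pyrimidines and 2 C, and both strands were searched. RefSeq promoter windows of GRCm38.p6 ran from 250 bases before to 50 bases after a start site. They were found for 7 of the 10 genes and gave 9 windows, 3 of them for *Nfkb2*. No window was found for *Relb*, *Nfkb1* or *Nfkbiz*, so their promoters were not searched. The consensus was present in 7 of the 9 windows (77.8%), belonging to *Rel*, *Nfkb2*, *Nfkbia*, *Nfkbie* and *Bcl3*, and in 8.46% of the 32851 windows of all genes. The windows at start sites 2 and 3 of *Nfkb2* overlap, and the only match in the latter is also counted in the former. *Rela* and *Nfkbib* had no match in their windows. The matches are written 5′ to 3′ on the strand of the gene, with the match in capitals and 10 bases on either side in lower case, and a match shifted by 1 base in *Rel* and *Nfkb2*, and those at the other start sites of *Nfkb2*, are left out.
*Bcl3*, chr7:19822734-19822763, minus strand: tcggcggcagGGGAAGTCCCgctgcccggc
*Rel*, chr11:23771042-23771071, minus strand: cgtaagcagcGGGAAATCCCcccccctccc
*Nfkb2*, chr19:46304688-46304717, plus strand: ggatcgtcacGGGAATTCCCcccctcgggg
*Nfkb2*, chr19:46304716-46304745, plus strand: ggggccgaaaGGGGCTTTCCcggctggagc
*Nfkbie*, chr17:45555584-45555613, plus strand: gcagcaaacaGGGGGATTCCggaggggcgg
*Nfkbia*, chr12:55492657-55492686, minus strand: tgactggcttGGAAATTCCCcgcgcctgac
In *Bcl3* the match began 2 bases after the start site, and in *Nfkbia* 29 bases before it. The core of the RUNX motif, TGTGGT, was searched in the same way because the design deletes *Runx1* and *Runx3*. It was found in 1 of the 9 windows (11.1%), that of *Rel*, and in 16.8% of all windows.
*Rel*, chr11:23771156-23771181, minus strand: gcgtgcaggcTGTGGTggctctggag
These matches describe the sequence and are not evidence of binding.

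The libraries held 12439296 to 16682194 counts, of which 1854 to 5900 fell on the 10 genes. *Runx1* was at 131, 141 and 172 CPM (counts-per-million, scaled by the trimmed mean of M values, TMM) in the Nf1fl/fl;DhhCre libraries, compared with 84.0, 78.9 and 185 CPM in the others, and replicate 3 of that label was the highest of the 6. *Runx3* was at 19.9, 15.1 and 29.9 CPM against 13.5, 10.3 and 12.1 CPM. These values did not overlap, which held in that direction for 20.5% of the genes tested. The change did not pass (adjusted p = 0.104 by limma-voom). *Nf1* itself was at 302 ± 30.8 and 290.3 ± 44.5 CPM (SD, n = 3 each). The libraries are therefore called by their label. The mice were 2 females and 1 male in the first group and 1 female and 2 males in the second by *Xist* and *Ddx3y*. Summed skeletal muscle genes reached 2497 CPM in Nf1fl/fl;DhhCre replicate 2 and 10878 CPM in replicate 2 labelled double knockout, and 4.43 to 64.2 CPM in the other 4. All libraries but 1 came from the same sequencing run. The exception is replicate 3 labelled double knockout by its title, or replicate 2 by the mouse number that its data carry.

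*Rel*, *Nfkbiz*, *Bcl3* and *Nfkb1* fell in the double-knockout-labelled libraries. The decreases were 2.64-fold for *Rel*, 2.49-fold for *Nfkbiz*, 2.13-fold for *Bcl3* and 1.70-fold for *Nfkb1*. These 4 of the 10 genes passed an adjusted p of 0.05 (limma-voom with Benjamini-Hochberg adjustment over all genes), where 8.22% of the genes tested passed in that direction. With the additional requirement of more than 2-fold, which defined differentially expressed genes (DEGs) in the study, 3 of the 10 passed, against 5.36% of all genes in that direction. None of the 10 rose, where 11.1% of all genes passed the adjusted p upwards and 8.03% as DEGs, and none did so at an unadjusted p under the same threshold, by edgeR or by DESeq2. Under these other rules the shares of all genes that passed downwards and upwards were 16.1% and 19.1% at an unadjusted p, 9.07% and 11.2% by edgeR, and 13.3% and 15.9% by DESeq2, and they were 6.87% and 8.82% with sex as a term. All 10 log2 fold changes were negative (48.9% of those tested were), although that of *Nfkbia* was near 0 and turned positive by edgeR and DESeq2, and their median was -0.88 where that of all genes was 0.02. In 8 of the 10 genes, every library labelled double knockout lay below every Nf1fl/fl;DhhCre library, which held for 20.5% of the genes tested.

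**Figure D1:**
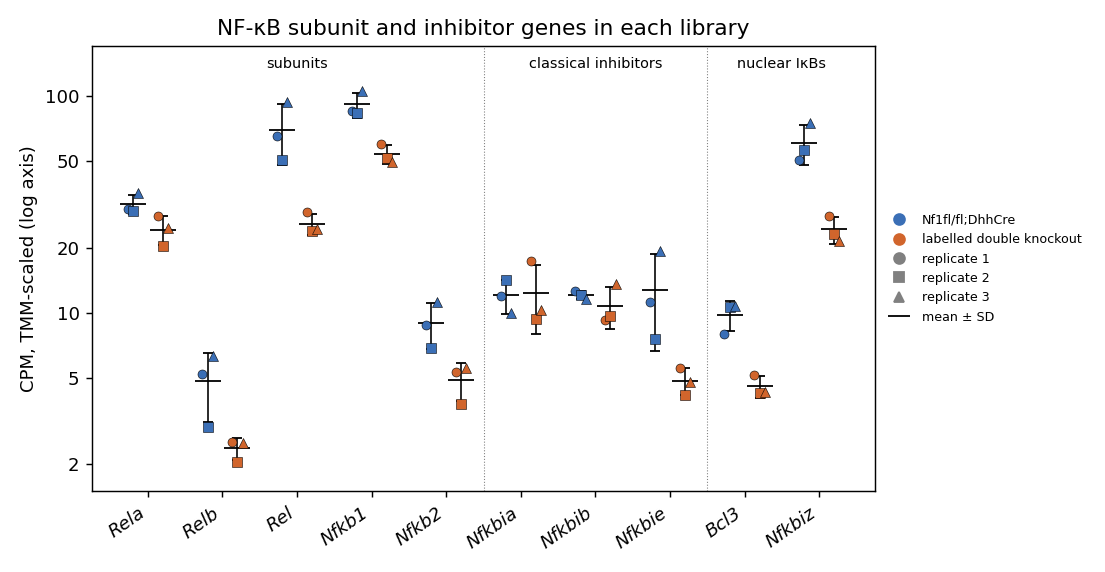
TMM-scaled CPM (log axis) of the 10 genes in each of the 6 libraries, by genotype (color) and replicate (symbol), with the mean ± SD of 3 libraries. The genotypes are apart in 8 genes and overlap in *Nfkbia* and *Nfkbib*.

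Macrophage and fibroblast genes fell and neuronal genes rose in the same libraries. Of 12 macrophage markers tested, 9 fell, and their summed level was 1030 to 2106 CPM in the Nf1fl/fl;DhhCre libraries and 160 to 406 CPM in the others. All 7 fibroblast markers fell, with sums of 9270 to 9913 CPM against 3403 to 5640 CPM. All 14 sensory neuron markers rose, with sums of 1285 to 2627 CPM against 6378 to 14383 CPM. None of these markers was at 0 counts in all libraries. Without Nf1fl/fl;DhhCre replicate 1 only 1 marker each of the macrophage, fibroblast and neuron lists passed. Over all genes 383 passed in that fit, against 3017 with all libraries. Without replicate 2 labelled double knockout 5 macrophage, 3 fibroblast and 10 neuron markers passed, and without Nf1fl/fl;DhhCre replicate 3 the counts were 7, 4 and 6. Without replicate 3 labelled double knockout they were 7, 4 and 11. Over all genes these last 3 fits gave 1192, 1203 and 2032. The part of these cell types in the changes of NF-κB genes was not tested. In bulk tissue fewer cells of a type and less RNA per cell cannot be told apart. Nf1fl/fl;DhhCre replicate 3, which had the highest macrophage sum, had the highest value of its group in 8 of the 10 genes. Nf1fl/fl;DhhCre replicate 2, with the lowest macrophage but highest fibroblast sum of its group, had its lowest value in 6. Replicate 2 labelled double knockout had the lowest macrophage and fibroblast sums and the highest muscle sum of the 6. It had the lowest value of its group in 7 of the 10 and lay below every Nf1fl/fl;DhhCre library in all 10. Replicate 1 of that label, with the highest macrophage and fibroblast sums of its group, did so in 9, and replicate 3 in 8. The shares of all genes with these traits were not determined, so these counts show nothing particular to the 10.

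Among the subunits, *Rel*, which encodes c-Rel, the subunit best known from lymphoid and myeloid cells, had the largest decrease. *Rel* lies on chromosome 11 of GRCm38 from 23736847 to 23770970. It was at 65.5, 50.9 and 93.6 CPM in the Nf1fl/fl;DhhCre libraries, compared with 29.1, 23.8 and 24.4 CPM in the double-knockout-labelled libraries. The lowest Nf1fl/fl;DhhCre value was 21.8 CPM above the highest of the others. On the log2 scale it changed by -1.40 (SE 0.26; adjusted p = 0.0150 by limma-voom). With 1 library left out at a time, it changed by -1.57 to -1.13 and passed in 4 of 6 fits. Its adjusted p from limma-voom was 0.0592 without Nf1fl/fl;DhhCre replicate 1 and 0.0512 without replicate 2 labelled double knockout.

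*Nfkb1*, the gene of p105 and p50, lies on chromosome 3 from 135584655 to 135691547 and had the most counts of the 10. It was at 85.2, 83.6 and 105 CPM in the Nf1fl/fl;DhhCre libraries, compared with 59.9, 51.9 and 49.6 CPM in the double-knockout-labelled libraries. The groups were 23.7 CPM apart at their nearest values. Its change of -0.76 on the log2 scale (SE 0.15; adjusted p = 0.0186 by limma-voom) was smaller than 2-fold. It passed in 3 of the 6 fits that left out 1 library (-0.80 to -0.62). The 3 in which it did not were those without Nf1fl/fl;DhhCre replicate 1, Nf1fl/fl;DhhCre replicate 3 and replicate 2 labelled double knockout, with adjusted p-values of 0.0592 to 0.0649 in limma-voom.

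*Rela* encodes p65, the transactivating partner of p50 in the canonical dimer, and lies on chromosome 19 from 5637483 to 5648130. Its values were 30.2, 29.6 and 35.5 CPM in the Nf1fl/fl;DhhCre libraries against 27.8, 20.3 and 24.5 CPM. The groups did not overlap, but only 1.80 CPM lay between them. *Rela* changed by -0.40 on the log2 scale (95% interval -0.81 to 0.01, adjusted p = 0.151 by limma-voom), the smallest of the 5 subunits, and it did not pass in any of the fits that left out 1 library.

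*Relb* and *Nfkb2* encode the subunits of the noncanonical arm, in which p100 is cut to p52 and pairs with RelB. *Relb*, on chromosome 7 from 19606217 to 19629438, had the fewest counts of the 10, with 75, 50 and 99 against 32, 25 and 38. These made 5.20, 2.98 and 6.35 CPM against 2.55, 2.06 and 2.51 CPM. No value of one group reached the other. Its log2 fold change was -0.93 (95% interval -1.91 to 0.04, adjusted p = 0.158 by limma-voom). *Nfkb2*, on chromosome 19 from 46304320 to 46312385, measured 8.81, 6.85 and 11.2 CPM against 5.34, 3.78 and 5.55 CPM. The values were again apart, and the log2 fold change was -0.84 (95% interval -1.55 to -0.13, adjusted p = 0.0942 by limma-voom). *Nfkb2* passed with DESeq2 (adjusted p = 0.0320), and *Relb* passed in limma-voom without Nf1fl/fl;DhhCre replicate 2 (-1.22, adjusted p = 0.0473). Exons of *Psd* and of a noncoding RNA on the opposite strand cover 6.52% and 11.6% of the exons of *Nfkb2*, and their reads could not be told apart because the strandedness of the counting was not stated.

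None of the 3 classical inhibitors passed in the main limma-voom test, where 8.22% of all genes passed downwards and 11.1% upwards. With 3 genes this count cannot show whether the group changed. Only 1 of them, *Nfkbie*, passed at an unadjusted p, with edgeR, with DESeq2 and with sample quality weights. *Nfkbia* encodes IκBα, the inhibitor that NF-κB induces most directly, and lies on chromosome 12 from 55489410 to 55492647. It was at 11.9, 14.2 and 9.94 CPM in the Nf1fl/fl;DhhCre libraries, compared with 17.3, 9.37 and 10.3 CPM in the double-knockout-labelled libraries. Replicate 1 labelled double knockout had the highest value of the 6, and replicate 2 of that group the lowest. The log2 fold change was -0.02 (95% interval -0.68 to 0.65, adjusted p = 0.976 by limma-voom), and its sign changed with the test, between -0.10 and 0.08. This interval includes decreases as large as that of *Rela* but not that of *Bcl3*.

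*Nfkbib*, the gene of IκBβ on chromosome 7 from 28758251 to 28767512, measured 12.6, 12.1 and 11.6 CPM against 9.24, 9.62 and 13.5 CPM. The Nf1fl/fl;DhhCre values were close together, and replicate 3 labelled double knockout lay above them while the other 2 lay below. The log2 fold change was -0.16 (95% interval -0.67 to 0.34, adjusted p = 0.627 by limma-voom). Exons of *Ccer2* and *Sirt2* on the opposite strand cover 14.5% and 1.94% of its exons, and *Sirt2* rose by 0.51 on the log2 scale (adjusted p = 0.0331 by limma-voom). *Nfkbie*, the gene of IκBε, a further inhibitor under NF-κB control, lies on chromosome 17 from 45555703 to 45563169. Its values were 11.2, 7.57 and 19.4 CPM in the Nf1fl/fl;DhhCre libraries and 5.58, 4.19 and 4.82 CPM in the others. The double-knockout-labelled libraries were the lowest 3, and the Nf1fl/fl;DhhCre values spread widely, with a coefficient of variation of 47.6% against 14.3%. A change of -1.27 on the log2 scale (95% interval -2.28 to -0.25) did not pass in limma-voom (adjusted p = 0.0802). It passed with edgeR's quasi-likelihood test (-1.38, adjusted p = 0.0409), with DESeq2 (-1.40, adjusted p = 0.00428) and with sample quality weights in limma-voom (-1.29, adjusted p = 0.0488).

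Both nuclear IκB genes fell. *Nfkbiz* encodes IκBζ, a coactivator of secondary inflammatory genes, and lies on chromosome 16 from 55811375 to 55838899. It was at 50.5, 56.6 and 74.9 CPM in the Nf1fl/fl;DhhCre libraries, compared with 28.1, 23.2 and 21.5 CPM in the double-knockout-labelled libraries. Its groups were 22.4 CPM apart at their nearest values. *Nfkbiz* changed by -1.32 on the log2 scale (SE 0.20; adjusted p = 0.0113 by limma-voom). It was the only one of the 10 that passed both thresholds in all 6 fits with 1 library left out (-1.41 to -1.12).

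*Bcl3* encodes a proto-oncogenic IκB protein that binds p50 and p52 homodimers. It lies on chromosome 7 from 19808462 to 19822770. The counts were 115, 178 and 168 in the Nf1fl/fl;DhhCre libraries and 65, 52 and 65 in the double-knockout-labelled libraries. They made 7.98, 10.6 and 10.8 CPM against 5.18, 4.28 and 4.29 CPM, and the groups were 2.80 CPM apart. The log2 fold change was -1.09 (SE 0.26, 95% interval -1.69 to -0.49, adjusted p = 0.0287 by limma-voom). *Bcl3* passed in each of the 9 other settings that kept all 6 libraries, from -1.17 to -0.95, of which that with sample quality weights (-0.95) was under 2-fold, but in none of the 6 fits that left out 1 library. In those fits its change was -1.20 to -0.98 and its adjusted p 0.0592 to 0.0916 in limma-voom. An antisense gene on the other strand covers 6.51% of its exons.

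**Figure D2:**
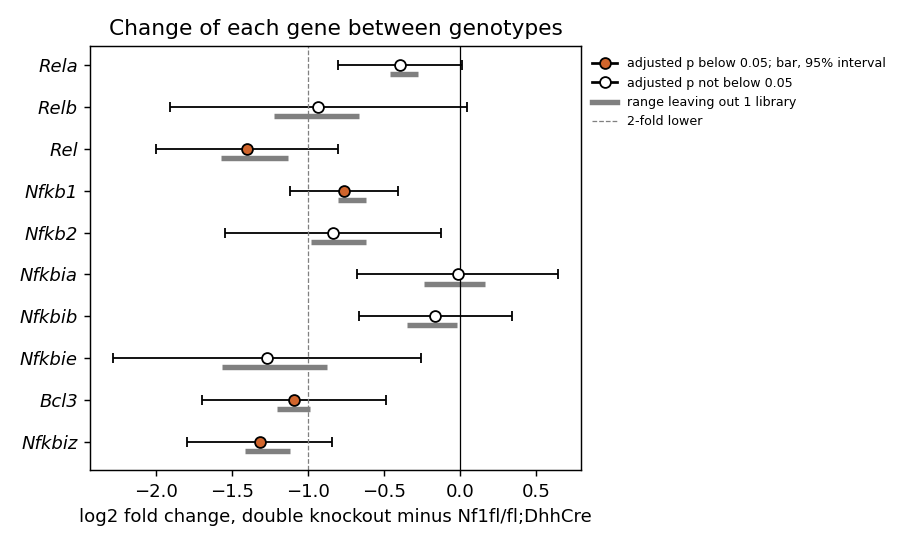
Log2 fold change of the 10 genes, double-knockout-labelled minus Nf1fl/fl;DhhCre libraries. Shown are the 95% interval of the limma-voom fit (black), the range over the 6 fits that left out 1 library (gray) and 2-fold lower (dashed). *Rel*, *Nfkb1*, *Bcl3* and *Nfkbiz* (filled) passed the adjusted p, and the points of *Nfkbia* and *Nfkbib* lie near 0.

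How many of the 10 passed varied with the library left out. Each of these fits also had fewer libraries, and the 2 effects were not separated. Without Nf1fl/fl;DhhCre replicate 1 or without replicate 2 labelled double knockout only *Nfkbiz* passed, and without Nf1fl/fl;DhhCre replicate 3 *Nfkbiz* and *Rel*. In the same order, 190 of 16031, 391 of 16002 and 572 of 15964 genes passed downwards, against 1287 of 15652 with all libraries. *Rel*, *Nfkb1* and *Nfkbiz* passed without replicate 3 labelled double knockout, the library with the most *Runx1*, and also without replicate 1 of that group. Without Nf1fl/fl;DhhCre replicate 2 there were 5, namely *Relb*, *Nfkbie* and these 3. In the same order, 627 of 15979, 809 of 16094 and 1388 of 15943 genes passed downwards in these fits. With sex as a term in the fit, 4 passed as before (6.87% of all genes passed downwards).

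Levels of different genes were compared as CPM per kilobase of annotated exon. In the Nf1fl/fl;DhhCre libraries *Nfkbiz* was highest at 12.1 ± 2.53 CPM per kilobase (SD, n = 3), followed by *Rela* at 10.3 ± 1.06 and *Rel* at 9.38 ± 2.91. *Nfkb1* at 7.57 ± 0.996 and *Nfkbia* at 7.48 ± 1.34 came next. *Nfkbib* (5.57 ± 0.218), *Nfkbie* (4.17 ± 1.99), *Bcl3* (3.95 ± 0.634), *Nfkb2* (1.95 ± 0.471) and *Relb* (1.25 ± 0.441) were lower. Between neighbors in this order, only *Nfkbia* above *Nfkbib* and *Bcl3* above *Nfkb2* held in every library against every library. In the libraries labelled double knockout the order began with *Rela* at 7.88 ± 1.22 and *Nfkbia* at 7.65 ± 2.69, and *Nfkbiz* came after *Nfkbib* at 4.83 ± 0.681. *Rel* was at 3.45 ± 0.391 there, between *Nfkb1* and *Bcl3* and apart from both. *Relb* was lowest in both groups.

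**Figure D3:**
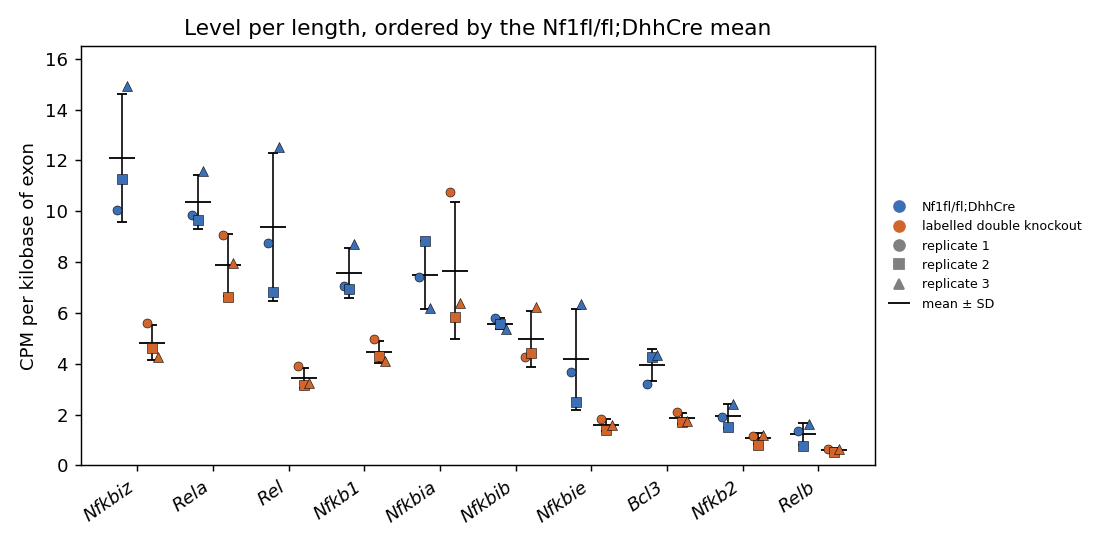
CPM per kilobase of exon of the 10 genes in each library, by genotype (color) and replicate (symbol), with the mean ± SD of 3 libraries, ordered by the Nf1fl/fl;DhhCre mean. *Nfkbiz* leads in the Nf1fl/fl;DhhCre libraries and *Rela* and *Nfkbia* in the double-knockout-labelled libraries.

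Ratios within a library compared the genes with each other. The summed classical inhibitors relative to the summed subunits, as log2 of counts per kilobase, averaged -0.81 (SD 0.22) in Nf1fl/fl;DhhCre and -0.30 (SD 0.093) with the double-knockout label, over 3 libraries each. The difference of 0.50 had a two-sided p = 0.1 by exact permutation, the smallest that 3 libraries against 3 allow. *Rel* relative to *Rela* was at -0.18 ± 0.31 and -1.19 ± 0.12 on the same scale, without overlap (exact permutation p = 0.1, two-sided, n = 3 each). *Nfkb2* relative to *Nfkb1* was at -1.98 ± 0.21 and -2.08 ± 0.31, and the groups overlapped (exact permutation p = 0.7, two-sided, n = 3 each).

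The rest of the pathway was followed through lists of 88 ligands, receptors, adaptors, kinases, dampers and target genes, of which 76 could be tested. Of these, 17 fell and 1 rose past the adjusted p (limma-voom), against 8.22% and 11.1% of all genes in these directions. The median log2 fold change was -0.76, and 69 of the 76 were negative. With 1 library left out 3 to 25 pathway genes passed, where 383 to 3006 did over all genes. The fewest were without Nf1fl/fl;DhhCre replicate 1 and the most without Nf1fl/fl;DhhCre replicate 2. With sex as a term 10 fell and none rose (6.87% and 8.82% of all genes).

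Of 11 receptors, 5 fell, where 8.22% of all genes did. With 1 library left out 1 to 6 fell, the fewest without Nf1fl/fl;DhhCre replicate 1. *Tnfrsf1b*, the TNF receptor found mostly on leukocytes and endothelium, was at 51.6, 44.4 and 71.6 CPM in the Nf1fl/fl;DhhCre libraries, compared with 13.1, 9.79 and 10.9 CPM in the others. It changed by -2.29 on the log2 scale (SE 0.26; adjusted p = 0.00764 by limma-voom), and it passed in all 6 fits with 1 library left out. *Tnfrsf1a*, the widely expressed TNF receptor, fell by 1.19 (SE 0.19) and *Il1rap*, the shared chain of interleukin-1 receptors, by 1.20 (SE 0.26) on the log2 scale. They passed in 5 and 2 of those fits. Only 4 of the 10 ligands had enough counts to be tested. Of these *Tnfsf13b*, the B cell survival factor BAFF, fell by 2.72 (SE 0.62) and passed in 2 of those fits. Its levels were low, at 4.65, 4.65 and 8.92 CPM in the Nf1fl/fl;DhhCre libraries against 1.28, 0.411 and 1.06 CPM.

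With 1 library left out 0 to 7 of 20 adaptors fell (0 without Nf1fl/fl;DhhCre replicate 1 or replicate 2 labelled double knockout). With sex as a term 1 of 20 fell (6.87% of all genes did). Adaptors fell in 4 of 20 cases in the main fit, against 8.22% of all genes. They included *Myd88*, which links Toll-like and interleukin-1 receptors to the pathway (-1.14, SE 0.30), *Birc3*, a ubiquitin ligase and NF-κB target (-0.93, SE 0.18), and *Ripk1*, the kinase of the TNF receptor complex (-0.67, SE 0.19). *Birc3* passed in 4 of the 6 fits with 1 library left out, and *Myd88* and *Ripk1* in 1 each. Of 11 kinase genes, 2 fell (8.22% of all genes did) and 1 fell with sex as a term (6.87%). With 1 library left out 0 to 2 fell (0 in 4 of those 6 fits). The 2 were *Ikbkb*, the catalytic subunit of the IκB kinase used in the canonical arm, at 36.3, 33.4 and 34.2 CPM against 24.1, 19.3 and 24.2 CPM (-0.62, SE 0.16, adjusted p = 0.0340 by limma-voom), and *Map3k8* (-1.66, SE 0.36), which acts with p105 upstream of ERK. *Ikbkb* passed in none of the 6 fits that left out 1 library, in which it changed by -0.68 to -0.51. The other catalytic subunit, *Chuk*, changed by -0.08 (SE 0.16) and the regulatory subunit *Ikbkg* by -0.05 (SE 0.15), with overlapping values and adjusted p-values of 0.766 and 0.843 in limma-voom. *Map3k8* passed in 2 of those fits. Of 10 dampers, 2 fell (8.22% of all genes did), and none did with sex as a term (6.87%). With so few genes these counts of kinases and dampers cannot show whether a role changed. *Otulin*, which removes linear ubiquitin, changed by -0.83 (SE 0.21) and *Tnip2*, a partner of A20, by -0.77 (SE 0.19). With 1 library left out they passed in 1 and 2 of the 6 fits, and neither passed without Nf1fl/fl;DhhCre replicate 1 or 3 or replicate 1 or 2 labelled double knockout.

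Target genes fell in 3 of 20 cases and rose in 1, where 8.22% and 11.1% of all genes did so. With DESeq2 10 fell (13.3% of all genes did), at an unadjusted p 11 did (16.1%), and with sex as a term 3 fell (6.87%) and none rose. *Icam1*, an adhesion molecule induced by TNF, was at 16.8, 22.5 and 29.0 CPM in the Nf1fl/fl;DhhCre libraries, compared with 8.21, 4.11 and 3.43 CPM in the others (-2.21, SE 0.39, adjusted p = 0.0139 by limma-voom), and it passed in all 6 fits with 1 library left out. *Vcam1*, a further adhesion molecule, fell by 1.05 (SE 0.26) and *Ccnd1*, which encodes cyclin D1, by 1.91 (SE 0.28) on the log2 scale. *Sod2*, the mitochondrial superoxide dismutase, rose from 109, 109 and 93.4 CPM to 208, 328 and 153 CPM (1.07, SE 0.27, adjusted p = 0.0338 by limma-voom). *Ccnd1* passed in 5 of those fits, and *Vcam1* and *Sod2* in 1 each. Of the 26 target genes, 6 had too few counts to be tested (*Cxcl2*, *Ccl5*, *Ccl20*, *Il6*, *Csf2* and *Csf3*). The 5 cytokine genes among the tested targets did not pass in limma-voom, with *Il1rn* at -2.68 (SE 0.82, adjusted p = 0.0591), *Cxcl1* at -2.10 (SE 0.85, adjusted p = 0.125), *Csf1* at -0.75 (SE 0.22, adjusted p = 0.0533), *Ccl2* at -1.56 (SE 0.73, adjusted p = 0.176) and *Cxcl10* at -0.32 (SE 0.35, adjusted p = 0.562).

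**Figure D4:**
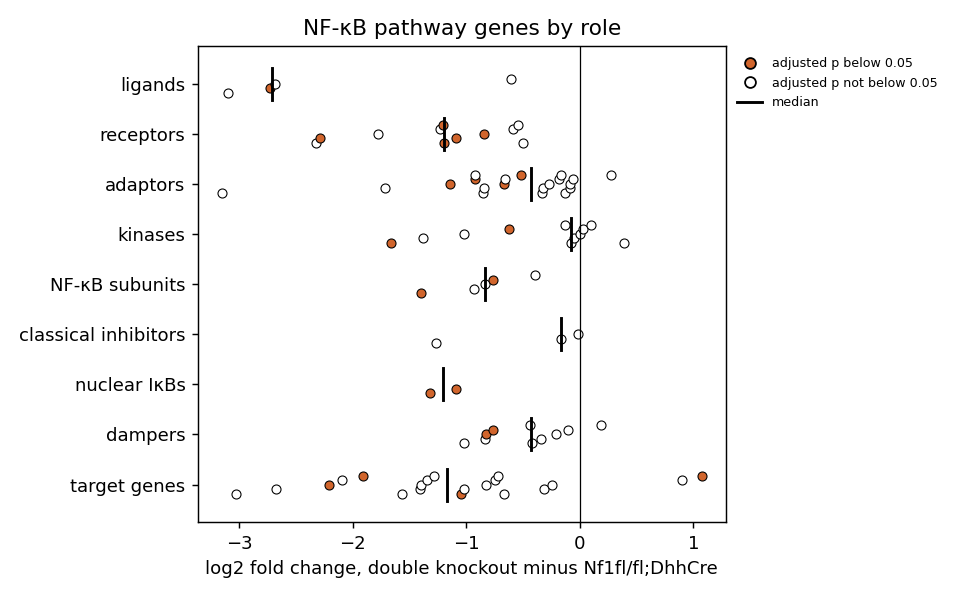
Log2 fold change, double-knockout-labelled minus Nf1fl/fl;DhhCre libraries, of each tested gene of the pathway lists and of the 10 subunit and inhibitor genes. Genes are shown by role (points) with the median of each role (line). Filled points passed the adjusted p, and *Sod2* among the target genes is the only filled point above 0.

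Among 85 genes of these lists, those whose course over the 6 libraries was most like that of *Bcl3* were *Vcam1*, *Nfkbiz* and *Nfkb1*. Their centered log2 CPM differed from that of *Bcl3* by a root mean square of 0.14, 0.16 and 0.21. All were genes that fell between the groups, and the likeness is a description over 6 libraries that share this difference.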

How the data were processed

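RNA of 6 mice was amplified with the Ovation RNA-Seq System v2 and prepared with Nextera XT. The authors aligned reads to mm10 with TopHat and deposited raw counts per gene made with featureCounts. The annotation, strandedness and treatment of multiply aligned reads were not given in the sources used here. The submitters' processing notes also name CASAVA 1.4 and limma.

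Replicates were numbered in accession order and pair no mice. Whether the libraries differ only as mice or also in preparation is not stated, and the p-values measure the spread between these 3 and 3. Between libraries of 1 genotype, chi-square divided by its degrees of freedom was 22.8 to 142, so none was a copy of another.

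The counts went through edgeR 4.0.16 and limma 3.58.1 in R 4.3.3: filterByExpr (minimum count 10, total 15), TMM factors (0.950 to 1.04), limma-voom on genotype alone, and Benjamini-Hochberg adjustment over all genes. A gene passed at an adjusted p below 0.05, and a DEG also changed more than 2-fold. CPM values were scaled by TMM over the genes tested. Exon lengths and positions came from GENCODE M21 (GRCm38), and centered log2 CPM had a prior count of 0.5. Fits were tested on simulated counts. Figures were drawn with matplotlib 3.10.9.

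The 10 genes and the lists were chosen with earlier results of these data known. The genes named were the 10, at most 3 per list and direction with the largest change among those that passed and averaged 1 or more in log2 CPM, the 3 most like *Bcl3*, and the deleted genes. *Chuk*, *Ikbkg*, *Csf1*, *Ccl2*, *Cxcl1*, *Cxcl10*, *Il1rn* and *Sirt2* were named after their values were seen. As alternatives, DESeq2 1.42.0, edgeR's quasi-likelihood test, DESeq2 size factors within limma-voom, library size only, a CPM above 1 in at least 3 libraries, no filter, sample quality weights, unadjusted p, sex as a term and leaving out each library were tried. The result of 1 further marker list is not reported here.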

Additional observations from a re-analysis of the deposited data

How the results depend on the processing

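The 4 NF-κB genes that passed ranged from 1 to 5 over the fits that left out 1 library, and the 3 that were DEGs from 1 to 4. Of the pathway genes, 18 passed, and 3 to 25 did so with 1 library left out. Over all genes 3017 passed, with a range of 383 to 3006, and 2096 were DEGs, with a range of 362 to 2285. The lowest of each came without Nf1fl/fl;DhhCre replicate 1, and for the NF-κB genes also without replicate 2 labelled double knockout. DESeq2 gave 4574 genes and 34 pathway genes, unadjusted p gave 5513 and 36, and sex as a term gave 10 pathway genes. The cause was not tested. *Nfkbia* changed sign with edgeR (0.033), DESeq2 (0.023), sample quality weights (0.081) and sex as a term (0.072) and ranged from -0.24 to 0.16 with 1 library left out. With 1 library left out, the difference between the groups in the log2 ratio of *Nfkb2* to *Nfkb1* ranged from -0.26 to 0.048 (without replicate 2 labelled double knockout), the difference in that of inhibitors to subunits from 0.39 to 0.61 and the difference in that of *Rel* to *Rela* from -1.16 to -0.85. The other 9 genes kept their sign in each setting. No paired analysis was possible because the labels give no replicate numbers shared between the genotypes. *Relb* had the fewest counts of the 10 genes, 25 to 99 per library.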

Other observations

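None of 11 lymphocyte markers passed in limma-voom, and 2 were lower at an unadjusted p (16.1% of all genes were), 2 with edgeR (9.07%) and 3 with DESeq2 (13.3%). Their summed level was 18.1 to 64.1 CPM in the Nf1fl/fl;DhhCre libraries and 8.05 to 12.9 CPM in the libraries labelled double knockout. None of 7 mast cell markers passed in limma-voom, edgeR or DESeq2, with 1 lower and 1 higher at an unadjusted p, and their sums overlapped at 41.8 to 82.1 and 58.1 to 77.6 CPM. None of 7 endothelial markers passed in limma-voom or edgeR, with 4 higher at an unadjusted p (19.1% of all genes were) and 2 with DESeq2 (15.9%), and 3 were higher in limma-voom without replicate 3 labelled double knockout. None of 7 skeletal muscle markers passed in limma-voom, edgeR, DESeq2 or at an unadjusted p.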
